A study of Rattus norvegicus with 4 samples.

Results

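The glucocorticoid receptor gene Nr3c1 and 8 genes that the receptor is known to induce (Fkbp5, Tsc22d3, Zbtb16, Sgk1, Klf9, Dusp1, Cebpd and Pdk4) were examined in rat cartilage. They were chosen by gene symbol, and all 9 were found among the 24005 genes of the count table and among the 15282 genes kept for testing. The study sequenced polyA RNA from the cartilage of rats of the outbred Sprague Dawley strain. All were male, with a stated age of 8 to 12 weeks and a stated weight of 140 to 230 g. The control group has 2 libraries labelled healthy, with control as the treatment. The osteoarthritis group has 2 libraries whose treatment label is XGS, short for Xiaogu San, a preparation obtained from a hospital of Chinese medicine. According to the title, the disease was brought on with monosodium iodoacetate, a glycolysis inhibitor. The labels give no osteoarthritis library without XGS, so disease and preparation cannot be told apart in this comparison. The design text calls the normal animals mice, whereas all 4 libraries are labelled rat. The labels do not say whether the libraries came from separate animals, so p-values measure the spread between these libraries, which may be technical. The labels used here name no glucocorticoid treatment, no hormone level and no hour of tissue collection.

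Glucocorticoids such as corticosterone, the main glucocorticoid of rats, cross the cell membrane and bind the receptor, which waits in the cytoplasm in a complex with heat shock proteins and immunophilins. The hormone-bound receptor moves into the nucleus, binds DNA at glucocorticoid response elements and draws in coregulators that raise or lower transcription. In cartilage and synovium glucocorticoids are best known for damping inflammation and, at high exposure, for slowing cartilage growth. The target genes feed back on the pathway (Fkbp5), restrain inflammatory signalling (Tsc22d3, Dusp1), encode transcription factors (Zbtb16, Klf9, Cebpd) or act in ion transport and metabolism (Sgk1, Pdk4).

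Promoter sequences are shown for 2 target genes whose osteoarthritis libraries both exceeded the controls, Klf9 and Tsc22d3, and for 2 whose groups overlapped, Dusp1 and Pdk4, so that the sequences before their starts can be compared. Each is the 250 bases before the outermost annotated start of the gene, from RefSeq on the GRCr8 build, written 5′ to 3′ on the strand of the gene. Capitals mark matches on either strand to the cAMP response element TGACGTCA, the E-box CACGTG, the CCAAT box or the GC box GGGCGG.

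Klf9, chr1:230126396-230126645, plus strand: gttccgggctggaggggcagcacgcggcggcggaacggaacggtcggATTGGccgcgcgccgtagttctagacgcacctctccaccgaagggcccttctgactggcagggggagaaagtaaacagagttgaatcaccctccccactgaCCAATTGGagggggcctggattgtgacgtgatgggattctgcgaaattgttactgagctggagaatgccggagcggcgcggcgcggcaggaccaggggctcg

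Tsc22d3, chrX:109066390-109066639, minus strand: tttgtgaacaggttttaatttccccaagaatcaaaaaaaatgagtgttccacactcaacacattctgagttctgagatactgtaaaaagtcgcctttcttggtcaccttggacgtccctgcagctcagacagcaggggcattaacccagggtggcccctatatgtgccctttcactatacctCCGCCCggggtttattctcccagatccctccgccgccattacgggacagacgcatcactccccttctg

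Dusp1, chr10:17184603-17184852, plus strand: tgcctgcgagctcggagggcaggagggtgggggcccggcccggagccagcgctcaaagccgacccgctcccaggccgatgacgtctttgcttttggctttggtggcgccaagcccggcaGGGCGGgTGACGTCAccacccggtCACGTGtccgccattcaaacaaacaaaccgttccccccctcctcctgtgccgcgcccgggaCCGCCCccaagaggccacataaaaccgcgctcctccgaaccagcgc

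Pdk4, chr4:34568330-34568579, minus strand: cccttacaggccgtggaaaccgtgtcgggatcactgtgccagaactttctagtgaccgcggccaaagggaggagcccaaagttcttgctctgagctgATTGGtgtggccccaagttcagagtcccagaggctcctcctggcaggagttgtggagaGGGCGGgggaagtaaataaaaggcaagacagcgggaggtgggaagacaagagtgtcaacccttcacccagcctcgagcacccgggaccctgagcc

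The sequences differ in which elements they hold. In the Klf9 stretch there are 3 CCAAT boxes, of which 2 overlap on opposite strands, and no match to the other searched elements. The Tsc22d3 stretch has 1 GC box, and windows at other starts of this gene held further GC boxes and CCAAT boxes. In the Dusp1 stretch a cAMP response element lies 124 to 117 bases before the start and an E-box 107 to 102 bases before it, beside 2 GC boxes. The Pdk4 stretch has 1 CCAAT box and 1 GC box. Among all 33469 RefSeq windows of 300 bases (250 before and 50 after a start), 1.83% held a cAMP response element, 6.42% an E-box, 37.5% a CCAAT box and 33.1% a GC box. Overlapping matches were counted separately. RefSeq windows were given for 7 of the 9 members, as 12 windows. A GC box was found in 9 of the 12 windows, which belong to 6 members (all but Klf9). The palindromic glucocorticoid response element, in which the core AGAACA and its reverse complement lie 3 bases apart, was found in 0 of the 12 windows and in 0.0149% of all windows. The core alone was found in 0 of the 12 and in 20.7% of all windows. These letters were searched only in these windows, and a match is not evidence of binding.

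Depth was 24492412 to 28270779 counts per library. The 9 members had 121 to 15161 counts per library. For the lowest count, that of Zbtb16 in control replicate 1, the exact Poisson 95% interval was 3.53 to 5.09 CPM (counts scaled to library size, with TMM factors), and such intervals cover counting error only. The intervals of the 2 controls overlapped for Nr3c1 (57.9 to 63.7 and 59.8 to 65.9 CPM) and Klf9 (30.4 to 34.6 and 33.9 to 38.5 CPM). Chondrocyte markers were detected in every library, with Col2a1, the main cartilage collagen, at 13919 and 26813 CPM among controls, as opposed to 3431 and 385 CPM with osteoarthritis. In osteoarthritis replicate 2 other chondrocyte genes were above both controls: the proteoglycan gene Acan was at 2703 CPM beside 493 and 587 CPM, Col11a1 at 2360 CPM beside 196 and 531 CPM, and the transcription factor gene Sox9 at 189 CPM beside 28.3 and 41.3 CPM. Of 11 chondrocyte markers, 6 lay below both controls in both osteoarthritis libraries and 0 above both. Among all tested genes, 26.5% lay below both and 30% above both, which also applies to the marker counts that follow. The libraries also held RNA of other cell types. For 10 neutrophil and precursor markers, 9 of which lay below both controls, the summed level was 7361 and 11530 CPM in the healthy libraries, against 120 and 612 CPM in the diseased ones, and for 10 erythroid markers, again with 9 below both, it was 37100 and 31697 CPM among controls, as opposed to 447 and 1193 CPM with osteoarthritis. The 10 adipocyte markers summed to 1742 and 696 CPM in control and to 8814 CPM in osteoarthritis replicate 1 but 81.3 CPM in osteoarthritis replicate 2, and Lep was at 0 in control replicate 1. Smooth muscle and pericyte markers summed to 2583 and 992 CPM in the healthy libraries, against 5159 and 3202 CPM in the diseased ones, with 5 of 8 above both controls. The part of these cells in the values of the members was not tested. In bulk tissue, fewer cells of a type and less RNA per cell cannot be told apart.

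**Figure D1:**
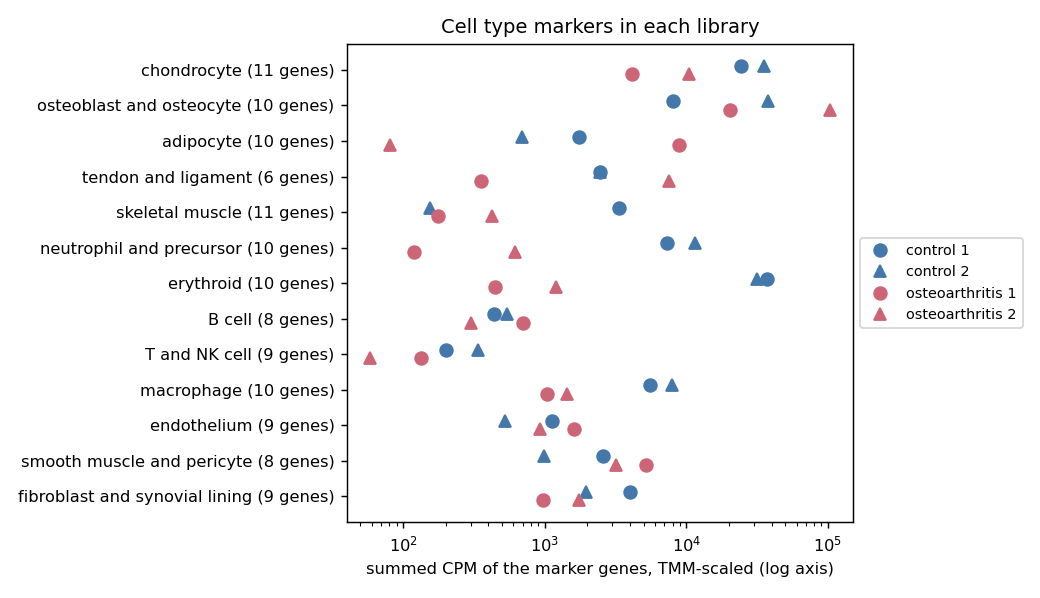
Summed CPM (log axis) of the marker genes of 13 cell types in each library, with circles for replicate 1 and triangles for replicate 2 of control (blue) and osteoarthritis (red). The neutrophil and erythroid sums are lower in both osteoarthritis libraries, whereas the adipocyte sum is highest in osteoarthritis replicate 1 (8814 CPM) and lowest in osteoarthritis replicate 2 (81.3 CPM).

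The comparison of osteoarthritis with control asked how cartilage transcripts differ between diseased rats, whose libraries carry the XGS label, and healthy rats. The receptor and 5 of its 8 targets (Fkbp5, Tsc22d3, Zbtb16, Klf9 and Cebpd) exceeded both controls in each osteoarthritis library, and 0 of 9 were lower in both. Among all tested genes, 30% lay above both controls in this way and 26.5% below both. By fitted fold change the order was Zbtb16 (31.0-fold), Klf9 (8.54-fold), Tsc22d3 (3.98-fold), Nr3c1 (2.12-fold), Fkbp5 (1.92-fold), Dusp1 (1.88-fold) and Cebpd (1.64-fold), with Pdk4 (0.989-fold) and Sgk1 (0.882-fold) near 1. None of the 9 passed the quasi-likelihood test of edgeR, adjusted over all tested genes by Benjamini-Hochberg, which called 0% of genes in either direction, and adjusted p of the members ran from 0.0824 to 0.991. At an unadjusted p under 0.05 in that test, 4 of 9 members were higher (Klf9, Zbtb16, Tsc22d3 and Nr3c1), and 0 were lower, where 12.2% of all tested genes were higher and 11.2% lower. DESeq2 called the same 4 higher and 0 lower, where it called 7.24% of all tested genes higher and 8.26% lower. The likelihood ratio test of edgeR called Klf9, Tsc22d3 and Zbtb16 higher, against 6.31% of genes higher and 6.4% lower. The quasi-likelihood test without a filter on low counts called the same 3, against 3.35% higher and 3.72% lower. By size alone, 4 members had a log2 fold change of at least 1, as did 23.3% of tested genes. At least 2 was reached by Zbtb16 and Klf9 and by 8.43% of tested genes, at least 3 by the same 2 members and by 3.77%, and at least 4 by Zbtb16 and by 2.39%. With library size alone as the scale, 7 of 9 members lay above both controls (Dusp1 was added), against 32.9% of tested genes. With 1 library left out, 6 or 7 of 9 did so, against 41.7% to 42.8% of tested genes: Dusp1 was added without control replicate 1 or osteoarthritis replicate 1, and Pdk4 without osteoarthritis replicate 2.

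**Figure D2:**
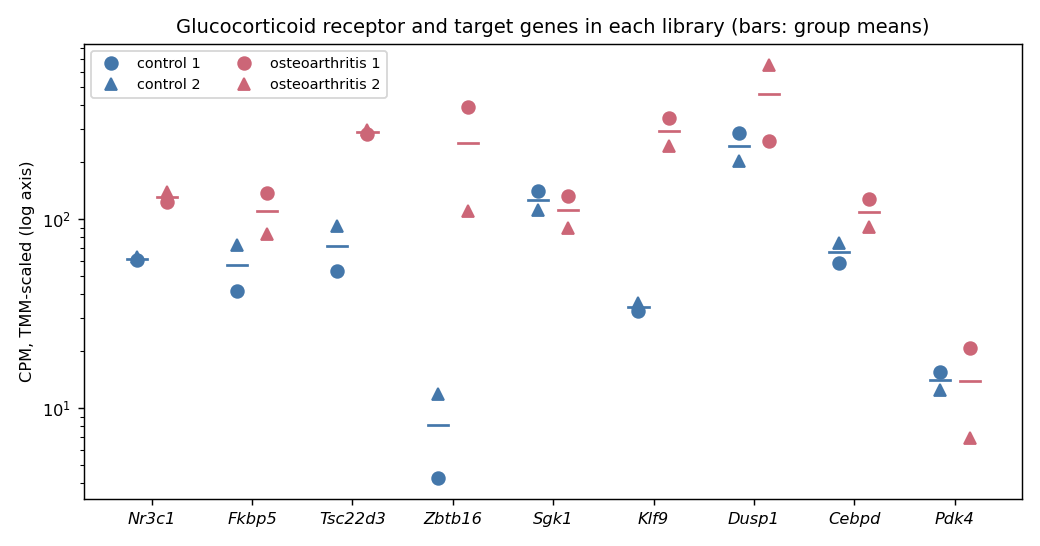
CPM (log axis) of the 9 members in each library, with circles for replicate 1 and triangles for replicate 2, and a bar at each group mean. For Nr3c1, Fkbp5, Tsc22d3, Zbtb16, Klf9 and Cebpd both red points lie above both blue points, and for Sgk1, Dusp1 and Pdk4 the groups overlap.

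Nr3c1 encodes the receptor itself. Its level was 60.7 and 62.8 CPM among controls, as opposed to 124 and 139 CPM with osteoarthritis. The replicates lay close together in both groups, and the lower osteoarthritis library was 1.97-fold above the higher control. The control mean was 61.8 ± 1.47 CPM and the osteoarthritis mean 131 ± 10.6 CPM (SD, n = 2 for either), which gave a log2 fold change of 1.09 ± 0.31 (SE, edgeR quasi-likelihood test, adjusted p = 0.140). The value ran from 0.98 to 1.19 over the 14 other settings tried, the narrowest range of the 9 members. DESeq2 gave an adjusted p of 0.0272 at a log2 fold change of 1.07. Of all tested genes, 21.4% had a larger log2 fold change than Nr3c1.

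Zbtb16 encodes PLZF, a zinc finger transcription factor that is induced by glucocorticoids in many cell types. It was at 4.26 and 11.9 CPM in the controls and at 392 and 110 CPM in the osteoarthritis libraries. Both osteoarthritis libraries were far above both controls, the lower one 9.23-fold above the higher control, but the osteoarthritis libraries differed 3.56-fold from each other. This gave a log2 fold change of 4.95 ± 0.90 (SE, n = 2 each, edgeR quasi-likelihood test, adjusted p = 0.0876), and 1.86% of all tested genes had a larger one. Without osteoarthritis replicate 1 it was 3.71 (edgeR adjusted p = 0.000709), and without osteoarthritis replicate 2 it was 5.61 (edgeR adjusted p = 3.01e-07). Without osteoarthritis replicate 1, 8.16% of all tested genes were called higher and 6.95% lower, and without osteoarthritis replicate 2, 4.88% and 5.73%. Replicate 1, in which Zbtb16 was highest, is also the library with the highest adipocyte sum, 8814 CPM. In replicate 2 the 10 adipocyte markers ran from 0.0432 CPM for Cidec to 29.4 CPM for Lipe. Most of these were below both controls, but Plin4 at 13.8 CPM, Pparg at 6.18 CPM and Lep at 0.259 CPM lay between the controls. The part of fat cells in the value of Zbtb16 was not tested.

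Klf9 encodes a zinc finger transcription factor that follows both glucocorticoids and the circadian clock. It stood at 32.5 and 36.1 CPM in the healthy libraries, against 342 and 243 CPM in the diseased ones. The controls were nearly equal, and the lower osteoarthritis library was 6.73-fold above the higher control. The fitted log2 fold change was 3.09 ± 0.39 (SE, n = 2 each, edgeR quasi-likelihood test, adjusted p = 0.0824), and 3.57% of all tested genes had a larger one. The adjusted p of Klf9 equalled the smallest of any gene in that test, and the value ran from 2.79 to 3.33 over the 14 other settings.

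Tsc22d3 encodes GILZ, a leucine zipper protein through which glucocorticoids restrain inflammatory transcription factors. It stood at 53.0 and 91.5 CPM among controls, as opposed to 281 and 294 CPM with osteoarthritis. The osteoarthritis libraries were nearly equal, whereas the controls differed 1.73-fold, and the groups did not overlap. Fitted to all 4 libraries, the log2 fold change was 1.99 ± 0.42 (SE, n = 2 each, edgeR quasi-likelihood test, adjusted p = 0.101). It was 1.98 without osteoarthritis replicate 1 and 1.97 without osteoarthritis replicate 2, so neither of these libraries set its size, and the value was 1.60 without control replicate 1 and 2.45 without control replicate 2.

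Fkbp5 encodes an immunophilin that binds the receptor complex and lowers its affinity for hormone, a negative feedback. It stood at 41.5 and 73.1 CPM in the healthy libraries, against 137 and 82.9 CPM in the diseased ones. The groups were barely apart, with the lower osteoarthritis library 1.13-fold above the higher control. Its log2 fold change was 0.94 ± 0.45 (SE, n = 2 each, edgeR quasi-likelihood test, adjusted p = 0.280), and it did not pass that test. On the log2 scale, replicate 2 minus replicate 1 was 0.82 in control and -0.73 in osteoarthritis. The log2 fold change was 0.49 without osteoarthritis replicate 1, 0.54 without control replicate 1 and 1.42 without control replicate 2.

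Cebpd encodes C/EBP delta, a transcription factor of acute phase and fat cell programmes. Its level was 58.8 and 74.3 CPM among controls, as opposed to 127 and 90.4 CPM with osteoarthritis. As for Fkbp5, the groups were apart by little, 1.22-fold between the nearest libraries. This gave a log2 fold change of 0.71 ± 0.35 (SE, n = 2 each, edgeR quasi-likelihood test, adjusted p = 0.291). Cebpd was at 0.40 without osteoarthritis replicate 1 and at 0.50 without control replicate 1. It was at 0.90 without control replicate 2 and at 0.95 without osteoarthritis replicate 2.

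Dusp1 encodes a phosphatase that switches off MAP kinases and is also an early response gene. Its level was 283 and 202 CPM in the healthy libraries, against 258 and 655 CPM in the diseased ones. Osteoarthritis replicate 1 lay between the controls and replicate 2 was 2.54-fold higher than replicate 1, so the groups overlapped. The fitted log2 fold change was 0.91 ± 0.57 (SE, n = 2 each, edgeR quasi-likelihood test, adjusted p = 0.391). It rested on replicate 2: it was 0.10 without that library and 1.41 without replicate 1. Replicate 2 also had the highest sum of 6 tendon and ligament markers, 7522 CPM, beside 352 to 2471 CPM in the other libraries, and their relation to Dusp1 was not tested.

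Sgk1 encodes a kinase that promotes sodium transport and cell survival. It stood at 140 and 112 CPM among controls, as opposed to 132 and 89.9 CPM with osteoarthritis, and the groups overlapped. Fitted to all 4 libraries, the log2 fold change was -0.18 ± 0.36 (SE, n = 2 each, edgeR quasi-likelihood test, adjusted p = 0.817). With 1 library left out it ran from -0.51 (without osteoarthritis replicate 1) to 0.08 (without osteoarthritis replicate 2). Pdk4 encodes a kinase that turns pyruvate away from oxidation and is prominent in fat and muscle. It had 15.6 and 12.5 CPM in the healthy libraries, against 20.8 and 6.91 CPM in the diseased ones. The osteoarthritis libraries lay on either side of both controls and differed 3.01-fold. Its log2 fold change was -0.02 ± 0.63 (SE, n = 2 each, edgeR quasi-likelihood test, adjusted p = 0.991). It was -1.05 without osteoarthritis replicate 1 and 0.58 without osteoarthritis replicate 2. The adipocyte sum (8814 and 81.3 CPM) and Pdk4 were both higher in replicate 1 than in replicate 2 and their relation was not tested.

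**Figure D3:**
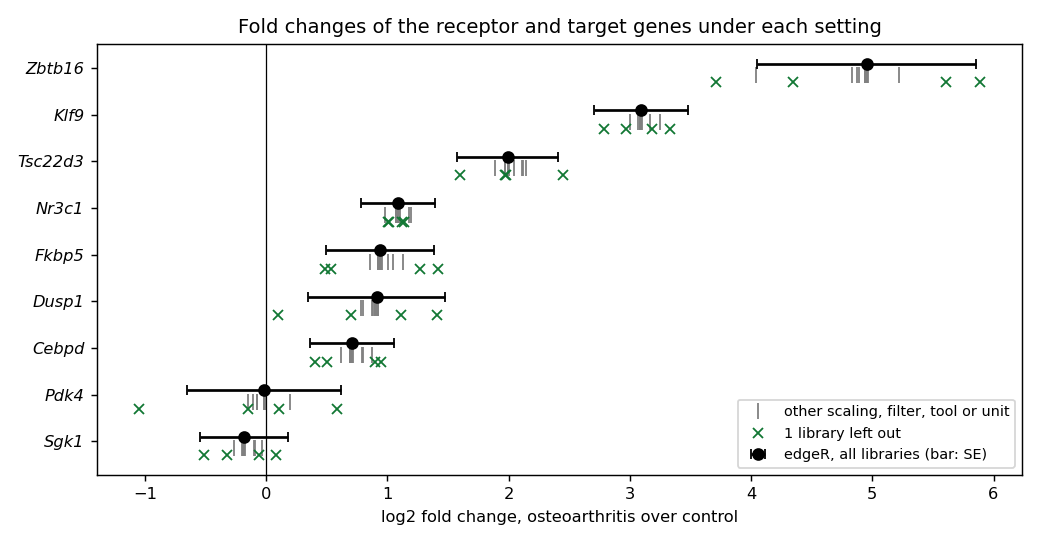
Log2 fold change of osteoarthritis over control for each member: black points with SE bars for edgeR on all libraries, gray ticks for the other scalings, filters, tools and units, and green crosses for fits without 1 library. Every gray tick and green cross lies above 0 for all members but Pdk4 and Sgk1, whose crosses lie on both sides of 0.

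The targets differed among themselves. The median log2 fold change of the 8 targets was 0.93, beside 0.15 for all tested genes, and their values ran from -0.18 to 4.95. Of the 8 targets, 6 had more CPM in osteoarthritis replicate 1 than in replicate 2 (Fkbp5, Zbtb16, Sgk1, Klf9, Cebpd and Pdk4), Tsc22d3 differed by 0.07 on the log2 scale, and Dusp1 was 1.34 higher in replicate 2 on that scale. The median absolute log2 difference between the osteoarthritis libraries was 0.55 over all tested genes, and it was clearly exceeded by Zbtb16, Pdk4, Dusp1 and Fkbp5. Set against the mean of the controls, the targets had a median log2 ratio of 1.10 in osteoarthritis replicate 1 and 0.98 in replicate 2, although different genes carried it: Dusp1 was at 0.09 in replicate 1 and 1.43 in replicate 2, and Pdk4 at 0.57 and -1.02.

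Levels between genes can be compared per length, as FPKM (fragment counts scaled by gene length and library total). In control, Dusp1 had the highest mean FPKM, 123 ± 36.5 (SD, n = 2), followed by Cebpd at 56.1, Sgk1 at 46.3, Tsc22d3 at 33.1, Fkbp5 at 13.7, Klf9 at 13.2, Pdk4 at 9.55, Nr3c1 at 9.15 and Zbtb16 at 1.21 ± 0.749. The ranges of the neighbours Cebpd and Sgk1, Sgk1 and Tsc22d3, Fkbp5 and Klf9, and Pdk4 and Nr3c1 overlapped. In osteoarthritis, Dusp1 was again first in mean FPKM, at 232 ± 99.9 (SD, n = 2), but Tsc22d3 at 144 and Klf9 at 125 followed, then Cebpd at 103, Sgk1 at 45.3, Zbtb16 at 45.0 ± 41.7, Fkbp5 at 29.9, Nr3c1 at 20.9 and Pdk4, the lowest, at 17.6 and 4.32 in replicates 1 and 2. There the ranges of all neighbours overlapped except Cebpd with Sgk1 and Nr3c1 with Pdk4. Zbtb16 was thus the ninth in control and the sixth in osteoarthritis, and Klf9 the sixth and the third, though in osteoarthritis the ranges of both overlapped those of their neighbours. Relative to the FPKM of Nr3c1 in the same library, Klf9 had a ratio of 1.39 and 1.49 in control and 7.18 and 4.56 in osteoarthritis. The ratio of Tsc22d3 was 2.73 and 4.56 in control and 7.10 and 6.63 in osteoarthritis. The ratio of Zbtb16 was 0.0722 and 0.195 in control and 3.26 and 0.817 in osteoarthritis. Sgk1 went the other way, with 5.70 and 4.39 in control and 2.64 and 1.60 in osteoarthritis. So did Pdk4, with 1.17 and 0.910 in control and 0.769 and 0.228 in osteoarthritis. The mean FPKM of Sgk1 itself was nearly level (46.3 and 45.3), whereas that of Nr3c1, the divisor, was 9.15 and 20.9. The ratios of Fkbp5, Dusp1 and Cebpd overlapped between the groups.

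The next genes supply hormone to the receptor, remove it or, as Nr3c2 does, bind it too. Of 6 tested genes on this list, 3 lay above both controls and 0 below both, beside 30% and 26.5% of all tested genes. The median log2 fold change was 1.11, beside 0.15 for all tested genes. That median rests partly on genes near the floor: Hsd11b2, Abcb1a and Abcb1b were at 0 in control replicate 1, with SE of 2.42, 2.19 and 2.06. Abcb1a was named after its value was seen. EdgeR's quasi-likelihood test called 0 on the list. At an unadjusted p under 0.05 it also gave 0, beside 12.2% higher and 11.2% lower of all tested genes. DESeq2 called 0, beside 7.24% and 8.26%. Hsd11b1, the enzyme that regenerates active glucocorticoid inside cells, had 11.8 and 8.06 CPM among controls, as opposed to 16.2 and 13.6 CPM with osteoarthritis (log2 fold change 0.58 ± 0.47). H6pd, which supplies its cofactor, had 41.6 and 48.1 CPM in the healthy libraries, against 49.1 and 72.7 CPM in the diseased ones. Hsd11b2, which inactivates the hormone, had 0 and 1.76 CPM among controls, as opposed to 12.9 and 0.259 CPM with osteoarthritis, so only osteoarthritis replicate 1 stood out. Abcb1b, a drug efflux transporter that also carries glucocorticoids, had 0 and 0.230 CPM in the healthy libraries, against 1.32 and 3.54 CPM in the diseased ones.

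The receptor chaperones were split. Of 12 tested, 6 lay above both controls and 5 below both, beside 30% and 26.5% of all tested genes, and the median log2 fold change was 0.16. EdgeR's quasi-likelihood test called 0, with 1 higher at an unadjusted p under 0.05 and 1 higher by DESeq2, a share near the 12.2% and 7.24% of all tested genes. Hsp90aa1, the stress-inducible form of the chaperone that holds the receptor ready for hormone, was the 1 gene in both counts, with 14.5 and 22.1 CPM among controls, as opposed to 77.7 and 38.8 CPM with osteoarthritis (log2 fold change 1.67 ± 0.47, DESeq2 adjusted p = 0.0349). Hsp90ab1, the constitutive form, was nearly level between the groups, at 959 and 1057 CPM in the healthy libraries, against 1087 and 1104 CPM in the diseased ones (log2 fold change 0.12 ± 0.43), and was named after its value was seen. Fkbp4, an immunophilin that helps carry the receptor to the nucleus and counteracts Fkbp5, had 79.7 and 99.2 CPM among controls, as opposed to 53.7 and 65.8 CPM with osteoarthritis, below both controls (log2 fold change -0.58 ± 0.32). Ppid, another immunophilin of the complex, had 33.9 and 15.9 CPM in the healthy libraries, against 50.5 and 37.4 CPM in the diseased ones. Hspa8, a heat shock chaperone that acts before the Hsp90 step, had 432 and 372 CPM among controls, as opposed to 541 and 750 CPM with osteoarthritis.

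Most coregulators had higher levels in osteoarthritis. Of 14 tested, 12 lay above both controls and 1 (Trim28) below both, where 30% and 26.5% of all tested genes did so, and the median log2 fold change was 0.89. EdgeR's quasi-likelihood test called 0 of them, with 7 higher and 0 lower at an unadjusted p under 0.05 (12.2% and 11.2% of all tested genes), and DESeq2 called 4 higher and 0 lower (7.24% and 8.26%). Crebbp, a histone acetyltransferase that many nuclear receptors recruit, had 36.1 and 36.6 CPM in the healthy libraries, against 120 and 136 CPM in the diseased ones (log2 fold change 1.82 ± 0.31, edgeR quasi-likelihood adjusted p = 0.0835). Ncor1, a corepressor, had 53.9 and 74.4 CPM among controls, as opposed to 308 and 198 CPM with osteoarthritis (1.98 ± 0.41). Nrip1, a corepressor that competes with coactivators, had 16.3 and 16.03 CPM among controls, as opposed to 40.1 and 39.2 CPM with osteoarthritis (1.29 ± 0.32), with replicates nearly equal in both groups. The coactivator Ncoa1 lay above both controls as well, at 44.9 and 27.6 CPM in the healthy libraries, against 91.7 and 69.3 CPM in the diseased ones, and Ncoa2, at 13.3 and 20.1 against 14.5 and 36.4 CPM, was the 1 coregulator whose groups overlapped. These 2 and Trim28 were named after their values were seen.

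Genes reported as glucocorticoid-induced elsewhere went both ways. Of 45 tested besides the members, 17 lay above both controls and 6 below both, beside 30% and 26.5% of all tested genes. The median log2 fold change was 0.76, beside 0.15 for all tested genes. EdgeR's quasi-likelihood test called 0, with 11 higher and 2 lower at an unadjusted p under 0.05 (12.2% and 11.2% of all tested genes), and DESeq2 called 7 higher and 2 lower (7.24% and 8.26%). Per2 and Per1, components of the circadian clock, had log2 fold changes of 4.01 ± 0.56 and 2.57 ± 0.60 (SE, edgeR quasi-likelihood adjusted p = 0.0824 and 0.114). Per2 stood at 9.15 and 4.95 CPM among controls, as opposed to 76.8 and 151.3 CPM with osteoarthritis, and Per1 at 25.8 and 69.9 CPM in the healthy libraries, against 225 and 342 CPM in the diseased ones. Both were higher in osteoarthritis replicate 2 than in replicate 1, the reverse of Klf9 and Zbtb16. Rgs2, a brake on G protein signalling, had 4.89 and 7.90 CPM among controls, as opposed to 36.1 and 45.9 CPM with osteoarthritis (log2 fold change 2.68 ± 0.43). Lcn2, lipocalin, was lower, at 396 and 626 CPM in the healthy libraries, against 20.3 and 37.7 CPM in the diseased ones (-4.14 ± 0.55). It is also on the neutrophil list, whose summed level was lower in the same libraries, and the part of those cells in its value was not tested.

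**Figure D4:**
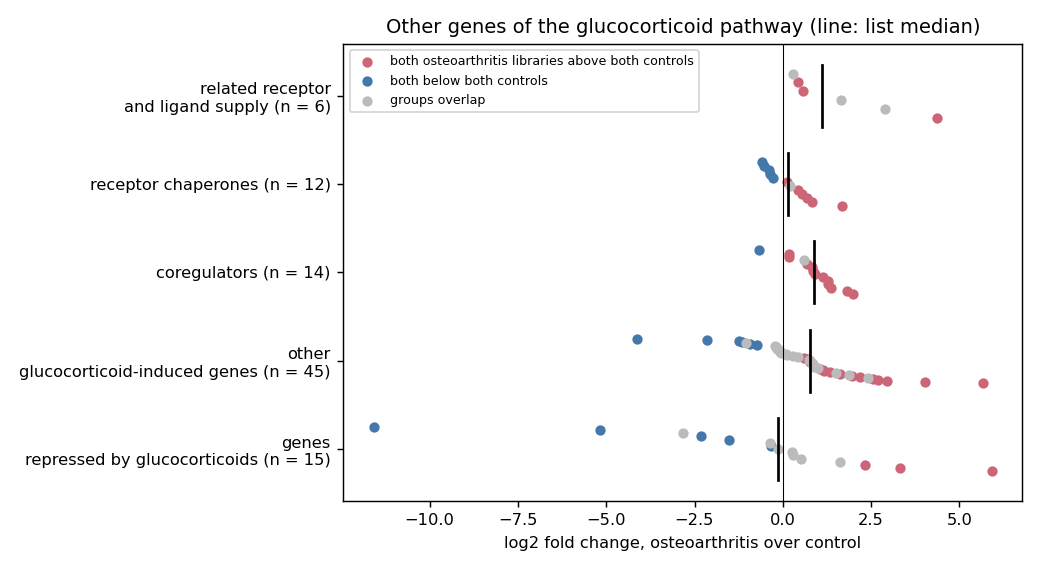
Log2 fold change of osteoarthritis over control for the other tested genes of the glucocorticoid pathway, 1 point per gene and a black line at each list median. Of the 14 coregulators, 12 are red (both osteoarthritis libraries above both controls), whereas the 12 chaperones are split into 6 red and 5 blue.

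Of 15 tested genes that glucocorticoids are known to repress, 3 lay above both controls and 5 below both, near the 30% and 26.5% of all tested genes, and the median log2 fold change was -0.14. EdgeR's quasi-likelihood test called 0, with 1 higher and 3 lower at an unadjusted p under 0.05 (12.2% and 11.2% of all tested genes), and DESeq2 called the same numbers (7.24% and 8.26%). Bglap, osteocalcin of bone-forming cells, had 520 and 2914 CPM among controls, as opposed to 0.848 and 0.259 CPM with osteoarthritis. The collagenase Mmp13 had 61.6 and 282 CPM in the healthy libraries, against 0.407 and 9.16 CPM in the diseased ones, and the stromelysin Mmp3 had 85.6 and 43.0 CPM among controls, as opposed to 3.56 and 22.1 CPM with osteoarthritis. Ptgs2, cyclooxygenase of inflammation, went the other way, with 0 and 0.230 CPM in the healthy libraries, against 0.814 and 13.4 CPM in the diseased ones, so its difference lay mostly in replicate 2. Of the 10 osteoblast and osteocyte markers, 7 lay below both controls, and their part in the value of Bglap was not tested.

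The genes most like the receptor in pattern over the 4 libraries were Nsmf, S1pr3 and Arrdc3, at Euclidean distances of 0.05, 0.07 and 0.09 between centred log2 CPM values, among 11353 genes with a mean of at least 5 CPM. The members themselves were farther from Nr3c1, from 0.63 for Cebpd to 4.05 for Zbtb16. The genes nearest to the mean profile of the 8 targets were Rsf1, Mtdh and Tshz1, at distances of 0.10, 0.12 and 0.15. With 4 libraries, likeness of this kind is a description of these libraries.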

How the data were processed

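Per the labels' protocols, RNA was extracted from cartilage with TRIzol and cleaned on RNeasy columns before Illumina library preparation. The submitters' processing notes name fastp, TopHat and the human build hg38, although the symbols are rat; neither the counter nor the annotation or strandedness is stated in these sources, so overlapping genes may share reads. The authors deposited raw counts per gene and FPKM values. In all 17848 genes with at least 2 values above 0, the ratio of deposited FPKM to count per library total was constant across libraries (largest relative spread 8.88e-15), so the FPKM values are no independent measurement.

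Libraries were grouped by disease state, with 2 per group. Genes were kept by filterByExpr, library sizes were scaled by TMM (trimmed mean of M-values, factors 1.01, 0.923, 1.21 and 0.891, in the order control replicates 1 and 2 and osteoarthritis replicates 1 and 2), and edgeR 4.0.16 in R 4.3.3 ran the two-sided quasi-likelihood F test with Benjamini-Hochberg adjustment over 15282 genes at a threshold of 0.05. SE is the log2 fold change divided by the root of F. An exact permutation test of 2 against 2 cannot go below p = 0.333 and was not run. DESeq2 1.42.0, limma 3.58.1 (voom, and limma-trend on log2 of FPKM plus 1 or plus 0.1), other scalings and filters, and fits without each library were alternatives. Scripts were tested on simulated data with 100 changed genes per size of change, 4-fold for the smaller and 16-fold for the larger. At the estimated dispersions, false calls were 14 by the quasi-likelihood test, 97 by DESeq2, 52 by the likelihood ratio test and 11 by limma-voom. In that order, 6, 27, 18 and 4 genes with the smaller change were recovered, and 66, 78, 75 and 53 with the larger. At a dispersion of 0.1 the false calls were 5, 17, 9 and 3, and 60, 70, 72 and 57 smaller changes were recovered.

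Members and lists were chosen with earlier results of these data known. Named genes are the members, up to 4 genes per pathway list with the smallest unadjusted p, and the 3 nearest genes to each profile (log2 CPM with 0.5 added). One gene named by this rule is not reported here. All 9 members matched RefSeq symbols of GRCr8.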

Additional observations from a re-analysis of the deposited data

How the results depend on the processing

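EdgeR's quasi-likelihood test on all libraries called 0 genes higher and 0 lower. With no filter on low counts it called 677 higher and 751 lower, DESeq2 called 1107 and 1262, and edgeR's likelihood ratio test called 965 and 978. Leaving out 1 library gave 0 to 1297 higher and 0 to 1105 lower: 1297 and 1105 without osteoarthritis replicate 1, 804 and 943 without osteoarthritis replicate 2, and 0 without either control. A lone library is assumed there to vary like the other group. Of the members, 3 were called higher with no filter and by the likelihood ratio test (Klf9, Tsc22d3 and Zbtb16 in both), 4 by DESeq2 (with Nr3c1), and 0 to 4 with 1 library left out, the 4 being these 3 and Dusp1 without osteoarthritis replicate 1. The cause of the differences between tests was not tested. On simulated data at the estimated dispersions, DESeq2 made 97 false calls, edgeR's likelihood ratio test 52 and its quasi-likelihood test 14. The median log2 fold change of the targets was 1.02 with library size alone and 0.82 with upper quartile factors, and 0.82 to 1.16 with 1 library left out, beside 0.93. The median of all tested genes moved with the scaling, from 0.15 to 0.27 with library size alone and 0.05 with upper quartile factors. Pdk4 turned to 0.20 with library size alone, 0.10 without control replicate 1 and 0.58 without osteoarthritis replicate 2, and Sgk1 to 0.08 without osteoarthritis replicate 2; with 1 library left out, Pdk4 ran from -1.05 to 0.58 and Sgk1 from -0.51 to 0.08. The other 7 members kept a positive log2 fold change in all 14 alternatives. The count of members above all controls in every osteoarthritis library was 6 to 7 with 1 library left out, beside 41.7% to 42.8% of all tested genes. This alternative was chosen after seeing the data. No paired analysis was possible because the labels give the groups no shared replicate numbers. Each group had 2 libraries, and depth was 24492412 to 28270779 counts per library.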
